A study of Mus musculus with 2 samples.

Results

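The genes described here are 36 targets and regulators of the sterol regulatory element-binding proteins (SREBPs) that act in sterol and fatty acid synthesis. They were taken by name, as every probe set whose platform annotation gave exactly 1 gene symbol and that symbol was on the list. This gave 81 of the 45101 probe sets on the array, for 35 genes of the 18193 that could be named in this way. Acat2 had no such probe set and is not analysed here. The members fell into 18 sterol enzymes (17 with values), 12 fatty acid and lipid synthesis genes, 5 regulators and the sterol carrier Stard4. The members and the other gene lists below were chosen with earlier results of these data known. Their counts beside those of all genes are therefore descriptive and not independent support.

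Glomeruli had been isolated by sieving from kidneys of male C57BL/6J mice, and RNA was read on 1-colour Affymetrix arrays. Both groups carried floxed alleles of GC-A, the guanylyl cyclase receptor for natriuretic peptides, and of p38, a stress-activated kinase. The double knockout also carried 1 Nephrin-Cre allele (Cre/+), in which the promoter of a podocyte gene drives Cre, which directs the deletion to podocytes. The floxed control (+/+) was read as lacking Cre. At 2 months of age all mice had received a diet with 6% NaCl, and a minipump had delivered aldosterone (0.2 µg/kg/min), for 3 weeks. No group without this load was analysed here. There was 1 array for each group, and how many mice contributed to it is not given in the sources used here, so no value below has a replicate check, no test between groups was possible, and higher and lower describe these arrays. The unit is the MAS5 signal, a linear intensity per probe set with each array scaled to a common mean, and differences are the log2 signal of the double knockout minus that of the control.

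SREBPs are transcription factors made as membrane proteins of the endoplasmic reticulum. When sterols run low, the escort protein Scap carries them to the Golgi, where proteases release the part that enters the nucleus. Insig proteins hold Scap back when sterols are plentiful. SREBP2, encoded by Srebf2, acts mainly on cholesterol synthesis, and SREBP1, encoded by Srebf1, mainly on fatty acid synthesis, with overlap between them. Podocytes depend on cholesterol-rich membrane domains at their filtration slits, while proximal tubule cells carry out much of the lipid and sterol metabolism of the kidney.

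Promoter stretches of 6 members are shown because these genes stand for the high and low ends of the results that follow. Idi1 and Insig1 were the lowest members, Hmgcs1 encodes an early enzyme of the mevalonate pathway, and Fads2 was the lowest fatty acid gene. Acly and Insig2 are a fatty acid gene and a regulator with differences near 0. Each stretch is the 250 bases before the gene's start in RefSeq, build GRCm38.p6, written 5′ to 3′ on the strand of the gene. The stretches lie at chr13:8885356-8885605 (plus strand) for Idi1, chr5:28071162-28071411 (plus strand) for Insig1, chr13:119690101-119690350 (plus strand) for Hmgcs1, chr19:10101504-10101753 (minus strand) for Fads2, chr11:100528001-100528250 (minus strand) for Acly and chr1:121332590-121332839 (minus strand) for Insig2. Insig2 has 3 listed starts, and the most upstream is shown. Capitals mark matches, on either strand, to TCACNCCAC (a sterol regulatory element), CCAAT (the box bound by NF-Y, a partner of SREBPs), GGGCGG (a GC box, bound by Sp1) or CACGTG (an E-box), and no matches overlapped.
Idi1: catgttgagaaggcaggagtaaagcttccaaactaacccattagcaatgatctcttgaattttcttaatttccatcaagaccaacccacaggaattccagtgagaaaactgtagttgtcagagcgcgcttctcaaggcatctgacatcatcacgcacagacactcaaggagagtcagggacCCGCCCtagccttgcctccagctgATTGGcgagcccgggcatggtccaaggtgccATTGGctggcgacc
Insig1: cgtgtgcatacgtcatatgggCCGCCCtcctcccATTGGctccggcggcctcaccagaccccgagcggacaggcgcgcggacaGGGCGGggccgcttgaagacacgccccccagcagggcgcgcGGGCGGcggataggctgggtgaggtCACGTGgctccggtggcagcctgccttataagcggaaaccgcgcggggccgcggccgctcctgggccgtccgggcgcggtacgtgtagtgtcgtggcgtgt
Hmgcs1: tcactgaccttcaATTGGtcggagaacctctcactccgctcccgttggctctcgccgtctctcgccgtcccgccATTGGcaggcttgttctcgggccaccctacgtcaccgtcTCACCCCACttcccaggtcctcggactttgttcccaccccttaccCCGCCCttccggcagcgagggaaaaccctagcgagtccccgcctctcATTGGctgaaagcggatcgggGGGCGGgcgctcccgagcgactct
Fads2: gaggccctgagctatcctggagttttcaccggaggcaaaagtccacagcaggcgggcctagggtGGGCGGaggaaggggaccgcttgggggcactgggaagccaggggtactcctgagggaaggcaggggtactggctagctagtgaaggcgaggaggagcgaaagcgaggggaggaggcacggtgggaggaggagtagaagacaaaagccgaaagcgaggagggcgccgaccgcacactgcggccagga
Acly: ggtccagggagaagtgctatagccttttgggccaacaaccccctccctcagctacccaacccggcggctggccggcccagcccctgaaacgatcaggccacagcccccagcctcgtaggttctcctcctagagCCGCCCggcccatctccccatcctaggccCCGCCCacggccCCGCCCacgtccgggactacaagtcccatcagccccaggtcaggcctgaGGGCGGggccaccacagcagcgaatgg
Insig2: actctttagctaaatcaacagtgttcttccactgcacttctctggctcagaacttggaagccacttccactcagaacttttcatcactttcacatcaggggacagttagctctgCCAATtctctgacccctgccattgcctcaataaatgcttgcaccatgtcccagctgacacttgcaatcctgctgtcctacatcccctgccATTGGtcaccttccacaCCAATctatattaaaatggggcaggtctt

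Among the 29 members with a listed promoter, the only match to the sterol regulatory element was in Hmgcs1. There it read TCACCCCAC from base 137 to base 129 before the start. The search was for these letters in 250 bases, so elements with other letters or further away would be missed. This element was in 1.05% of all 32851 promoter stretches of this length and in at least 1 stretch of 1.22% of genes. CCAAT matches were commoner, in 14 of 15 sterol enzymes with a listed promoter (Acat2 included), 5 of 9 fatty acid genes and 4 of 5 regulators, against 37.5% of all 27025 genes. GC boxes were found in 14 of 15 sterol enzymes, 5 of 9 fatty acid genes and 5 of 5 regulators, against 35.4% of all genes. E-boxes were found in 3 sterol enzymes (Hsd17b7, Sc5d and Dhcr7), in Elovl5, and in Scap and Insig1, against 6.86% of all genes. In all, 29 of the 36 members matched a promoter in the RefSeq table. The matches describe letters in these stretches and were not tested as binding sites.

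The genes of the genotype were read first. The GC-A gene Npr1 read 102 against 167 (double knockout first, here and below), a difference of -0.71. The labels do not name the p38 isoform that was floxed. Mapk14, the p38α gene, was taken to be this one, and gave 2607 against 2628 in the probe set of highest mean signal, which represents a gene here. Where these probe sets lie relative to the floxed exons is not given in the sources used here, so these values do not check the deletion. A signal under a floor of 52.7, the 40th percentile averaged over the arrays, was not counted as measured, and 13290 genes reached this floor on at least 1 array. Among these, 382 (2.87%) were lower in the double knockout by 2-fold or more and 469 (3.53%) higher by that much, and 43.9% had a difference below 0. The median difference over all measured genes was 0.07. The higher genes were 55.1% of those past 2-fold, a share that was 42.8% after median centring, 38.3% after 75th percentile centring, 45.0% after quantile normalization and 43.4% with the loess trend removed. Recentring on the cell type markers described below made it 99.7% (proximal tubule) and 2.10% (glomerulus).

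Sterol synthesis genes were lower in the double knockout as a group. All 17 sterol enzymes with values had a difference below 0, and 9 of them were at least 2-fold lower, against 2.87% of all measured genes. The count past 2-fold was 5 with the mean over a gene's probe sets, where sets below the floor on both arrays enter as 0. Each enzyme kept its sign under median, 75th percentile, quantile and loess scaling. Proximal tubule markers were lower on the same array (24 of 24 below 0, median -0.84). Relative to their median, 11 of 17 enzymes were below 0, 1 was at least 2-fold lower and the sterol median was -0.18. On that scale, 15 of 13290 measured genes were at least 2-fold lower. Mvk, the highest of the 11 enzymes, stood at percentile 4.64 of all measured genes. With the signals as deposited, the median difference of the enzymes was -1.02, a 2.03-fold lower signal, and the middle of their range ran from -1.27 to -0.75. Genes within the same range of mean signal as these enzymes gave a similar background, with 3.27% of 9111 at least 2-fold lower and 44.4% below 0. Fatty acid synthesis genes had a median of -0.39 (1.31-fold lower), with 11 of 12 below 0 (9 of 12 under quantile and loess scaling) and 3 of 12 at least 2-fold lower. Relative to the proximal tubule markers this direction turned, with a median of 0.45, 3 of 12 below 0 and 0 at least 2-fold lower. Over all 35 genes, 34 were below 0, or 15 relative to the proximal tubule markers. Of the 35, 13 were at least 2-fold lower and 0 at least 2-fold higher, with a median of -0.75. In these bulk samples, fewer cells of a type and less RNA per cell cannot be told apart.

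**Figure D1:**
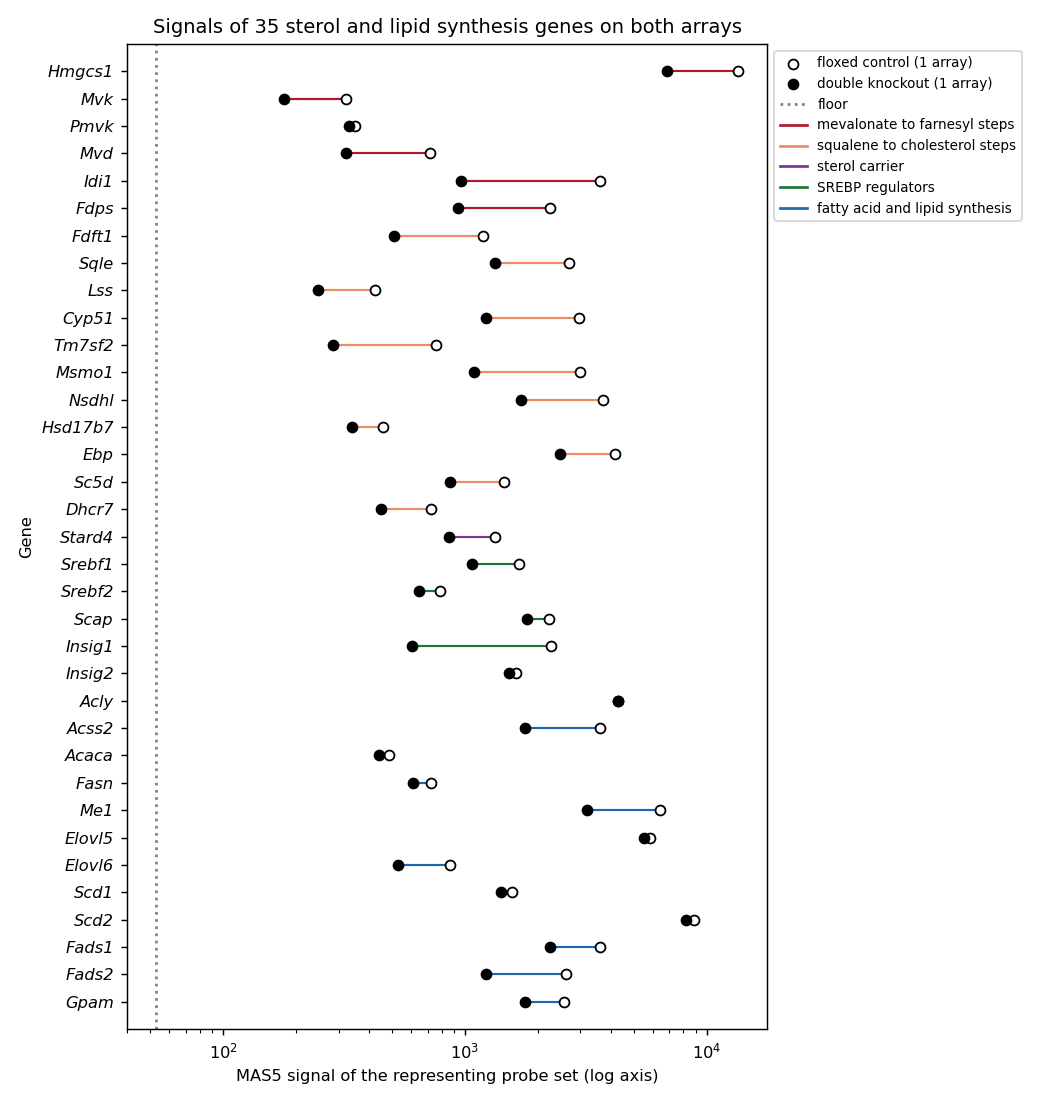
Signals of the representing probe set of each of the 35 genes, on a log axis, with 1 open point for the floxed control array and 1 filled point for the double knockout array; colours give the role. Every filled point but that of Acly lies to the left of its open point, and the widest gaps are those of Idi1 (965 against 3629) and Insig1 (603 against 2261).

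The early enzymes make the isoprenoid units from which sterols and other isoprenoids are built. Hmgcs1, whose product makes hydroxymethylglutaryl-CoA, had a signal of 6849.6 in double knockout glomeruli against 13476 in control glomeruli, a difference of -0.98. This placed it just outside the 2-fold rule at 1.97-fold lower. Its other 4 probe sets were lower too, at -1.12, -0.82, -0.74 and -0.50. The mevalonate kinase gene Mvk read 178 against 321 (-0.85), with -0.41 in its second probe set. Phosphomevalonate kinase, encoded by Pmvk, was the exception among the sterol enzymes, with 330.0 in double knockout glomeruli against 352 in control glomeruli and a difference of -0.09. Mvd, which encodes the decarboxylase that forms isopentenyl diphosphate, was 2.22-fold lower (324 against 718), and its second probe set read -1.09.

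Idi1 had the largest difference of all members. It encodes the isomerase that turns isopentenyl into dimethylallyl diphosphate, and its signal was 965 in double knockout glomeruli against 3629 in control glomeruli, 3.76-fold lower (-1.91). Only 12 of the 13290 measured genes had a lower difference. A second Idi1 probe set gave a smaller value, -1.25 (527 against 1251). Fdps, which encodes farnesyl diphosphate synthase at the branch point towards sterols, dolichol, ubiquinone and prenylated proteins, was 2.41-fold lower (932 against 2241). Its other probe set was below the floor on both arrays. Over the 6 mevalonate to farnesyl enzymes the median was -1.06, and 3 of 6 were at least 2-fold lower, against 2.87% of all measured genes.

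The enzymes from squalene to cholesterol had a median of -1.02, with 6 of 11 at least 2-fold lower, against 2.87% of all measured genes. Fdft1, which encodes squalene synthase, the step that commits farnesyl units to sterols, was 2.34-fold lower (507 against 1187), with -1.26 in a second probe set. Sqle, the gene of squalene epoxidase, read 1326 in double knockout glomeruli against 2693 in control glomeruli, and its difference of -1.02 was just inside the 2-fold rule. Lss, whose product closes the rings to form lanosterol, was 1.73-fold lower (246 against 425), but only -0.23 in another probe set. Cyp51, the lanosterol demethylase gene, read 1226 against 2973 (-1.28). Its other probe sets gave -1.10 and -0.25, the latter at 67.0 against 79.8, near the floor. Among probe sets above the floor on both arrays, this spread of 1.03 was the widest of any member.

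The steps that follow Cyp51 ranged from -1.46 (Msmo1) to -0.42 (Hsd17b7). Tm7sf2, which encodes a sterol reductase, was 2.67-fold lower, at 284 against 759.9. Msmo1, the methylsterol monooxygenase gene, was 2.74-fold lower, at 1087 against 2985, second to Idi1 among the sterol enzymes. Nsdhl, whose product removes the carboxyl group left by Msmo1, was 2.17-fold lower, at 1709.8 against 3716. The reductase gene Hsd17b7, which acts with them, stood nearer to 0 at -0.42 (341 against 456), with -0.53 and -0.80 in 2 other probe sets and another below the floor on the double knockout array.

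The last steps of the pathway had smaller differences. Ebp, a sterol isomerase gene, was 1.69-fold lower (2477 against 4176). Sc5d, a sterol desaturase gene, was 1.68-fold lower in its representing probe set (863 against 1449.5) but read -0.06 and 0.02 in others. Dhcr7, which encodes the reductase that yields cholesterol, was 1.60-fold lower (451 against 719.9). None of these 3 reached 2-fold. Stard4, a soluble carrier that moves sterols between membranes and is itself an SREBP2 target, was 1.55-fold lower (857 against 1328), and its 2 other probe sets gave -0.78 and -0.83.

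**Figure D2:**
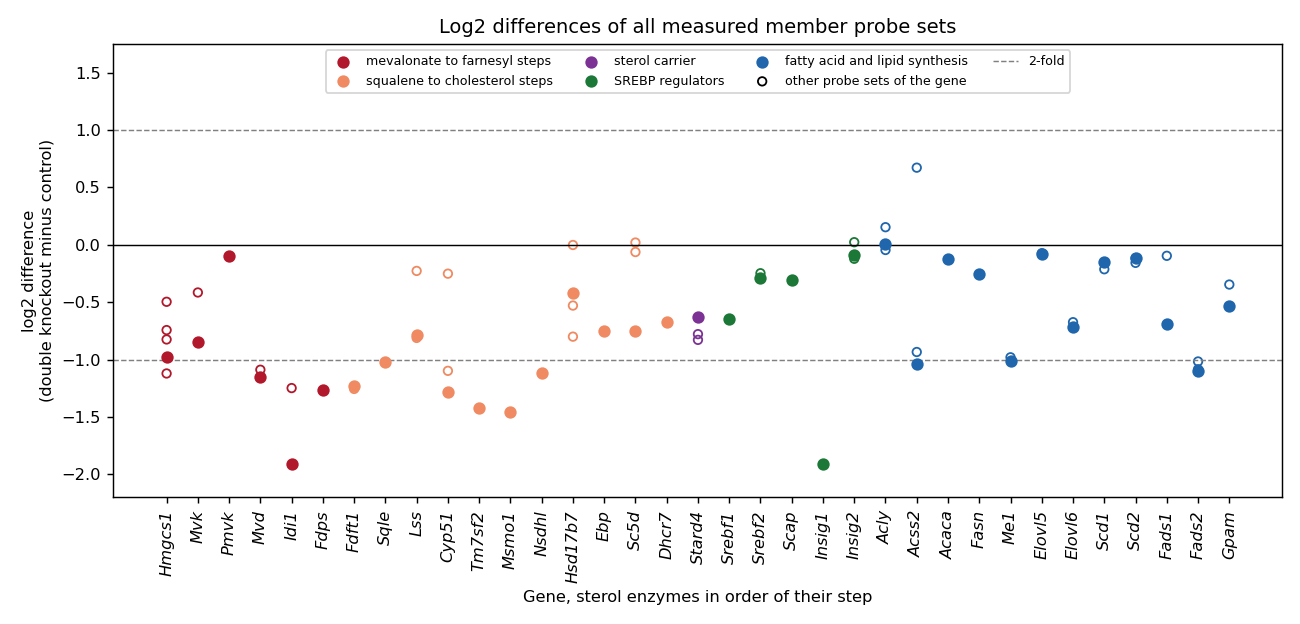
Log2 differences (double knockout minus control) of the 71 measured member probe sets, by gene, with sterol enzymes in the order of their steps; filled points represent the gene, open points are its other probe sets and dashed lines mark 2-fold. The filled points of sterol enzymes lie between -1.91 and -0.09, and those of fatty acid genes lie from -1.10 to -0.54 in 6 genes and from -0.25 to 0.01 in 6; open points reach 0.02 in Sc5d and 0.67 in Acss2.

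The regulators differed among themselves. Insig1, which encodes the anchor that retains Scap and is a classic SREBP target, had a signal of 603 in double knockout glomeruli against 2261 in control glomeruli, 3.75-fold lower (-1.91). It had a single probe set. Its paralogue Insig2 read 1526 in double knockout glomeruli against 1619.9 in control glomeruli, a difference of -0.09, with 0.02 and -0.12 in its other probe sets. The difference of Insig1 was -1.82 relative to that of Insig2. Insig1 stood beside Idi1 at the bottom of the members, and Insig2 was near the same level on both arrays.

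Transcripts of the SREBPs differed less than most sterol enzymes. Srebf1 was 1.57-fold lower (1069.7 against 1675). Srebf2 was 1.22-fold lower (643 against 786), with -0.25 in its second probe set, and Scap was 1.24-fold lower (1796 against 2221). All 5 regulators were below 0, against 43.9% of all measured genes, with a median of -0.31. Insig1 alone was past 2-fold, against 2.87% of all measured genes lower by that much. Relative to the median of the proximal tubule markers, Insig1 stood at -1.06. On that scale Srebf1 (0.20), Scap (0.54), Srebf2 (0.55) and Insig2 (0.76) were above 0. The amount of cleaved, nuclear SREBP was not measured on these arrays.

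The fatty acid genes separated into 6 with small and 6 with larger differences, a split chosen after their values were seen. The first 6 read between -0.25 and 0.01. Acly, which makes cytosolic acetyl-CoA from citrate, read 4306 in double knockout glomeruli against 4277 in control glomeruli (0.01). Acaca, the acetyl-CoA carboxylase gene, read 443 against 483 (-0.13), and Fasn, the fatty acid synthase gene, 609 against 726 (-0.25). Differences of this size were common, with Fasn at percentile 24.3 of all measured genes. The desaturase genes Scd1 and Scd2, which make monounsaturated fatty acids, read -0.15 (1403 against 1557) and -0.12 (8164 against 8865). All 5 of their probe sets lay between -0.21 and -0.11. The elongase gene Elovl5 read 5486 against 5815 (-0.08). Under quantile and loess scaling Scd2 and Elovl5 were above 0, as Acly was, at 0.11 and 0.06 with quantile and 0.12 and 0.08 with loess scaling.

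Another 6 fatty acid genes were lower. Fads2, which encodes the desaturase that starts the synthesis of long polyunsaturated fatty acids, had a signal of 1218 in double knockout glomeruli against 2609 in control glomeruli, 2.14-fold lower. Its 3 probe sets were close to each other, from -1.10 to -1.02. Fads1, the desaturase gene that acts after it, was 1.62-fold lower (2244 against 3624), with -0.10 in a second probe set. Acss2, which makes acetyl-CoA from acetate, was 2.05-fold lower (1766 against 3616), while another probe set read 83.9 against 47.2, a difference of 0.67 once the control signal, which is below the floor, was raised to it. Me1, the malic enzyme gene that supplies NADPH, was 2.01-fold lower (3189.8 against 6414). Elovl6, which elongates saturated fatty acids, was 1.64-fold lower (526 against 865), and Gpam, whose product adds the acyl chain that begins glycerolipid synthesis, was 1.45-fold lower (1772 against 2568). Fads2, Acss2 and Me1 were past 2-fold, the last 2 of them by little (-1.03 and -1.01).

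Set against each other, the sterol and fatty acid lists overlapped but were displaced. The medians differed by -0.63, so the sterol median was 1.55-fold lower relative to the fatty acid median. Of the 16 alternatives tried, 8 do not check this difference, since they shift all genes alike or change only a floor. They left it unchanged. The floor at the 60th percentile moved Mvk from -0.85 to -0.83 but not the median. Under the other 8 the difference of medians ranged from -0.63 to -0.41, the latter with the mean over probe sets. Among these it was unchanged with the probe set of median difference, without suffixed probe sets, and with Insig1 and Stard4 added. The 8 lowest genes of the combined order were sterol enzymes, from Idi1 to Nsdhl (-1.12), followed by Fads2. Of the 17 sterol enzymes, 16 were below the fatty acid median, and 2 of 12 fatty acid genes were below the sterol median. Pmvk was the sterol enzyme that lay among the upper fatty acid genes. Because there was 1 array a group, the displacement was described and not tested.

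**Figure D3:**
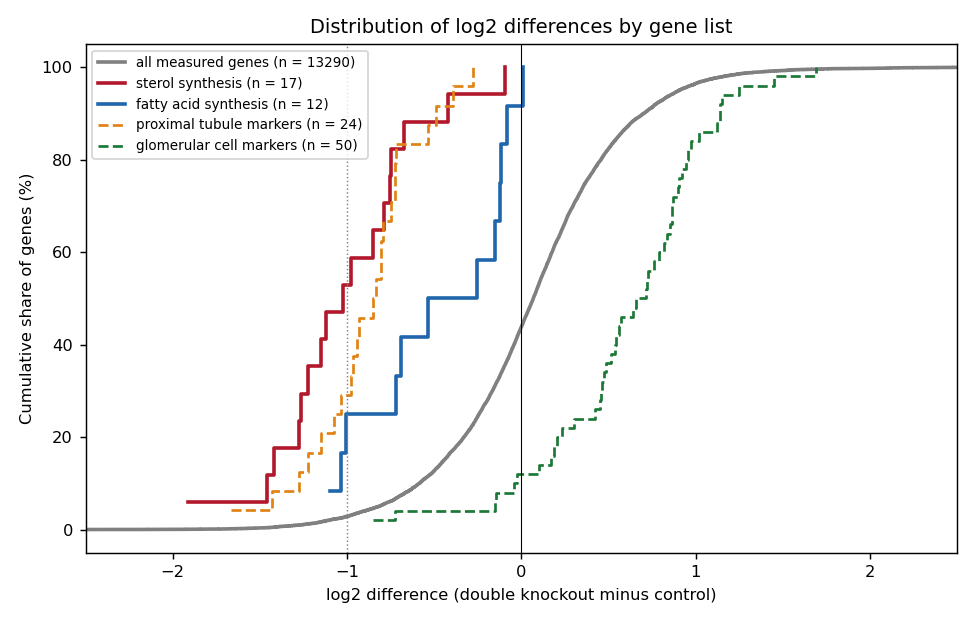
Cumulative share of genes (%) against the log2 difference (double knockout minus control) for all measured genes, the sterol and fatty acid lists and 2 sets of cell type markers. The sterol curve crosses 50% at -1.02 and lies left of the fatty acid curve, and beside that of the proximal tubule markers.

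Tubule markers were lower too. All 24 proximal tubule markers with values were below 0 and 7 at least 2-fold lower, against 43.9% and 2.87% of all measured genes. These markers had a median of -0.84 and summed signals of 197651 (double knockout) and 323348 (control). None was at 0 on either array, and the defining markers Slc34a1, Slc5a2 and Lrp2 read 15607 against 22597, 9047 against 15839 and 4939 against 8286. The 18 measured markers of the distal tubule and collecting duct were all below 0 as well (median -0.70, summed signal 35772 and 57245). Of the sterol enzymes, 11 of 17 were below the proximal tubule median, and 3 of 12 fatty acid genes were. Mvk, the highest of these 11 enzymes, stood at percentile 4.64 of all measured genes. Idi1 and Insig1 were below the lowest proximal tubule marker, Dpys (-1.66). The sterol enzyme at least 2-fold lower relative to the proximal tubule median was Idi1 (-1.07), beside 15 of 13290 measured genes. The part of tubule content in the sterol and fatty acid results was not tested.

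Markers of the glomerulus had the opposite sign for the most part. Podocyte genes were present on both arrays, with Nphs1 at 8373 against 5320.5 and Wt1 at 6093 against 3915. Of 17 podocyte markers 15 were above 0 (median 0.47, summed signal 109957 and 91066). The 2 below 0 were Sema3g (10244 against 16960, -0.73) and Tdrd5 (939 against 1697, -0.85). All 16 endothelial markers were above 0 (median 0.78, summed signal 72156 and 43856), as were 10 of 12 mesangial and mural markers (median 0.79, summed signal 33021 and 18011) and 3 of 5 parietal markers (median 0.45, summed signal 9945.9 and 8181). Among all measured genes 7454 of 13290 were above 0, and the parietal count was near that share. Over the 50 glomerular markers of these lists the median was 0.68. Relative to it, the sterol median was -1.71 with 16 of 17 at least 2-fold lower, and the fatty acid median was -1.08 with 6 of 12. On this scale, 2757 of 13290 measured genes were at least 2-fold lower. Macrophage markers were higher too, with all 14 measured members above 0 and a median of 0.91 (summed signal 15799.7 and 8633.5), and Trem2 below the floor on both arrays.

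**Figure D4:**
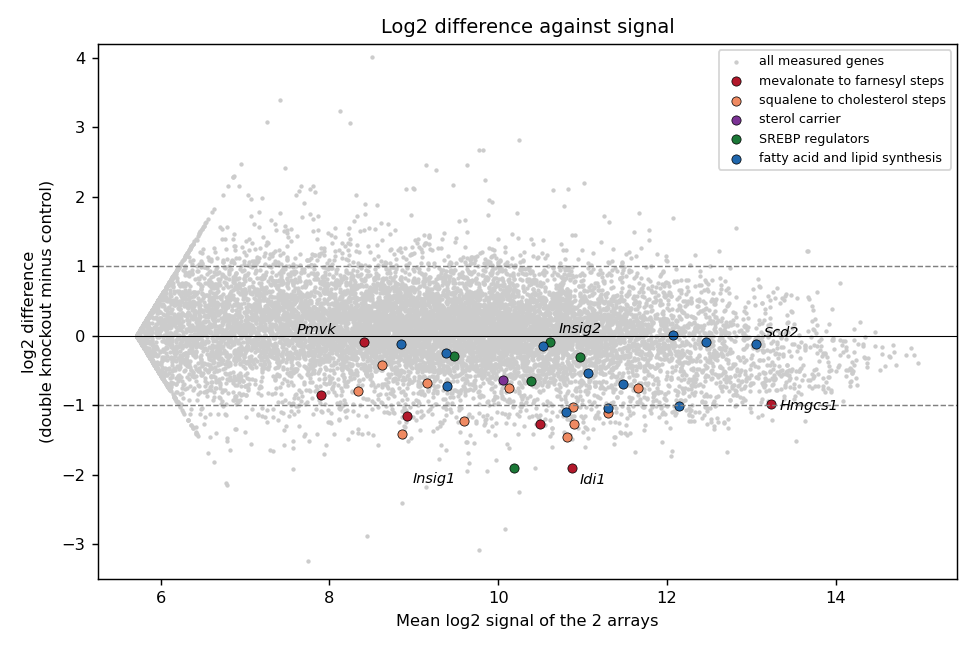
Log2 difference (double knockout minus control) against the mean log2 signal of the 2 arrays, with signals below the floor raised to it; grey points are the 13290 measured genes and coloured points the 35 members. Members are spread over a wide range of signal, and Idi1 (-1.91) and Insig1 (-1.91) lie at the lower edge of the genes of like signal.

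Genes that process SREBPs or assist them lay around the median of all genes. Of 22 measured genes for the Golgi proteases, the vesicle coat that carries Scap, the degradation machinery of Insigs and the partners NF-Y and Sp1, none was past 2-fold in either direction (2.87% lower and 3.53% higher among all measured genes), and the median was 0.08 against 0.07 for all measured genes. The largest differences were those of Sec24d, a coat gene (766 against 515, 0.57), the NF-Y subunit gene Nfyb (465 against 332, 0.49) and Sar1b, a coat GTPase gene (6069 against 8234, -0.44).

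Genes that move and store cholesterol were likewise spread around 0. None of 25 was past 2-fold in either direction, beside the same shares of all measured genes, 15 were above and 10 below 0, and the median was 0.06. Scarb1, the receptor for high-density lipoprotein, read 743 against 382 (0.96), and Abcg1, a sterol exporter induced by liver X receptors, read 1022 against 555 (0.88). Stard10, a phospholipid transfer protein gene, was lower (4194 against 7671, -0.87). Isoprenoid branches beyond farnesyl diphosphate had a median of -0.25, with 8 of 12 below 0 and none past 2-fold, beside the same shares. Dhdds, of dolichol synthesis, read -0.83 (555 against 985), Rabggta, of Rab prenylation, -0.82 (466 against 822), and Pdss2, of ubiquinone synthesis, -0.70 (313 against 509).

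Other genes of fatty acid and glycerolipid synthesis were mostly below 0. Of 34 measured genes 29 were below 0, against 43.9% of all measured genes, and the median was -0.48. At least 2-fold lower were 2 of 34, which is near the 2.87% of all measured genes. The lowest was Acsl3, which activates long-chain fatty acids (303 against 754, 2.49-fold lower), followed by the dicarboxylate carrier gene Slc25a10 (2710.3 against 5603, 2.07-fold lower). Mogat1, of triglyceride synthesis, read 1094 against 2166 (-0.99).

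Agreement between probe sets bears on how far single values can be read. Of the 81 member probe sets, 71 were measured, 66 of these were below 0 and 5 above, and 20 were at least 2-fold lower. Counted by probe set, 33 of 34 sterol enzyme probe sets were below 0 and 14 at least 2-fold lower (median -0.82), against 23 of 26 and 5 for the fatty acid genes (median -0.23). The shares over all measured probe sets are not given here, and a gene with several probe sets counts more than once. By gene, 43.9% of all measured genes were below 0 and 2.87% at least 2-fold lower. In 22 genes with at least 2 probe sets above the floor on both arrays, the median range between them was 0.17. The sign differed between probe sets in 3 of these genes, Acly, Insig2 and Sc5d, each with a probe set close to 0. With the mean over all probe sets of a gene in place of the representing one, 5 sterol enzymes and 1 fatty acid gene were at least 2-fold lower. Sets below the floor on both arrays enter that mean with a difference of 0, as in Fdps, Fdft1 and Msmo1. Such sets lower the count without a measured disagreement. In that setting 297 of 13305 measured genes were, and the medians of the 2 lists were -0.73 and -0.32.

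**Figure D5:**
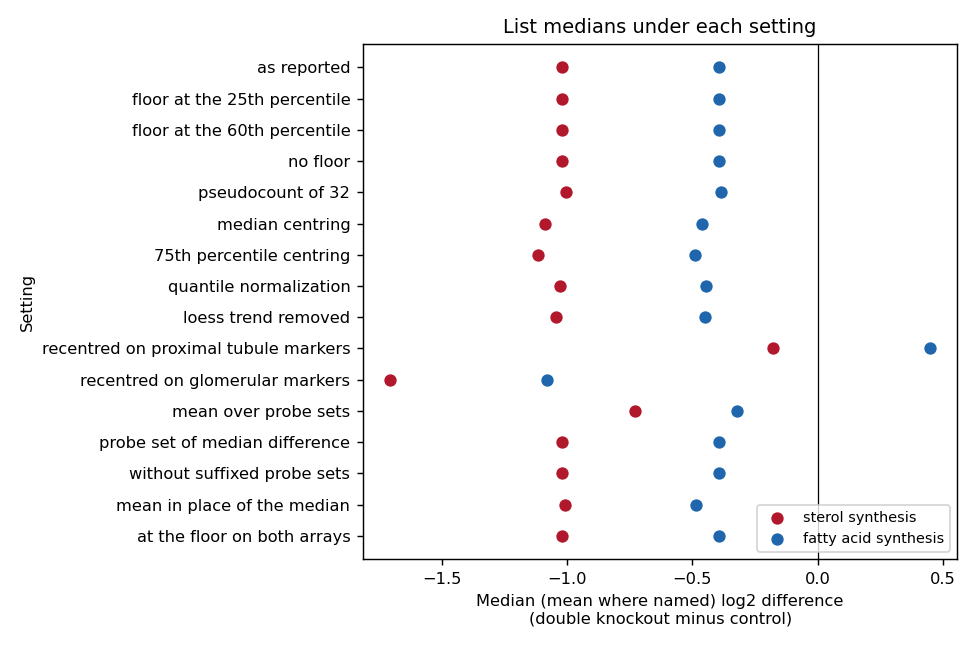
Median log2 difference (double knockout minus control) of the sterol and fatty acid lists under each processing setting (mean where named). The sterol point lies left of the fatty acid point in each row, and recentring on proximal tubule markers moves the pair to -0.18 and 0.45.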

How the data were processed

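The deposited values were MAS5 intensities on a linear scale, 1 per probe set and array, made by the authors per the submitters' processing notes; the version is not given in the sources used here. The mean without the lowest and highest 2% of probe sets was 500.0 on both arrays, so a difference is relative to the rest of that sample. Detection calls were not used here. Of 45101 probe sets, 64 controls were left out, 34945 had 1 symbol, 932 several and 9160 none listed. Member identifiers matched RefSeq for 35 of 35 genes.

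Values were used as deposited with Python 3.11.15 (pandas 2.3.3). Signals below the floor (52.7, from the 40th percentile of each array, averaged) were raised to it before log2. The probe set of highest mean log2 signal, without cross-hybridising _x_at sets where another existed, represented a gene, and genes reaching the floor on at least 1 array counted as measured. Lists were described by counts past 2-fold and medians. The number of arrays limits the precision. The 3′ over 5′ signal ratio was 1.29 and 1.36 for Actb. The gene table was tested on simulated data.

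All members were named, and of other lipid lists the 3 genes with the largest absolute difference. Members and lists were chosen with earlier results of these data known. Alternatives covered the floor, scaling, probe set, fold rule, summary and membership.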

Additional observations from a re-analysis of the deposited data

How the results depend on the processing

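The sterol median was below 0 under each of the alternatives tried. Floors at the 25th and 60th percentile, no floor, a pseudocount of 32, median, 75th percentile, quantile and loess scaling, the probe set of median difference and sets without suffixes moved the sterol median by less than 1.5 times and left its count at 8 to 10 (15 enzymes remained without suffixed sets). Recentring on proximal tubule markers, whose median was -0.84, gave a sterol median of -0.18, a fatty acid median of 0.45, counts at least 2-fold lower of 1 and 0, and 15 lower and 5558 higher genes in all. Recentring on glomerular markers, whose median was 0.68, gave -1.71, -1.08, 16 and 6, and 2757 lower and 59 higher genes. These shifts moved the share of higher genes to 99.7% and 2.10%. With the mean over probe sets, where sets below the floor on both arrays enter as 0, the counts were 5 and 1. With a 1.5-fold rule they were 15 and 5 (1331 lower and 1820 higher genes), and with a 3-fold rule 1 and 0 (34 and 73). All genes without a floor gave 1491 lower and 1655 higher, and a floor at the 60th percentile 274 higher. A value was taken as moved past 1.5 times, since no replicate spread exists. No paired analysis was possible because each group had 1 array. Signals of the 35 representing probe sets were above the floor on both arrays, so the floor had no part in their values. Fold sizes of single probe sets carry an error that these data cannot give.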

Other observations

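Some genes of lipid storage and handling were higher on the array on which the synthesis genes were lower; they were chosen after their values were seen, from lists that do not share their direction. Of the 25 cholesterol handling genes, which hold Ch25h, Scarb2 and Lrp1, 15 were above and 10 below 0, with Stard10 at -0.87, Stard5 at -0.62, Nr1h3 at -0.47 and Vldlr at -0.45. Of the 34 other fatty acid and glycerolipid genes, which hold Plin2, 29 were below 0. Plin2, which coats lipid droplets, read 2752 against 1693 (0.70). Ch25h, which makes an oxysterol that restrains SREBP processing, read 354 against 195 (0.86). Scarb2, a lysosomal membrane protein gene, read 6323 against 3609 (0.81), and the endocytic receptor gene Lrp1 read 1378 against 828 (0.74). None of these 4 higher genes was past 2-fold. Macrophage and endothelial markers were also higher on that array, and their part in these values was not tested.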
